A study of Mus musculus with 6 samples.

Results

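The genes described here are 36 genes of glycolysis and of the response to low oxygen, measured by RNA sequencing in cultured mouse ovarian cells. They were taken by symbol from the deposited table of 30862 gene rows, where they fill 37 rows because Aldoa has 2. They comprise 17 glycolytic enzymes, 6 transporters and regulators of glycolytic flux, 12 other hypoxia-responsive genes and Hif1a, which encodes the oxygen-regulated subunit of hypoxia-inducible factor 1 (HIF-1). Granulosa cells, the somatic cells that surround the oocyte, came from ICR mice, an outbred strain, and the females were 21 days old. The cells adhered for 12 h and were then kept for 24 h with sonicated polystyrene particles of 100 nm (PS-MP) at 750 µg/mL, or without particles at 0 µg/mL (control). There were 3 PS-MP libraries and 3 control libraries, numbered 1 to 3 in each group as biological replicates. The labels do not say whether equal numbers mark a shared culture or animal, so p-values speak only for the spread among these 6 libraries, and some of that spread may be technical.

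Glycolysis splits glucose into pyruvate and yields a little ATP without oxygen, and lactate dehydrogenase then returns pyruvate to lactate. Under normal oxygen, prolyl hydroxylases mark the HIF alpha subunit for destruction, and in low oxygen it escapes, pairs with ARNT and binds a short DNA core, the hypoxia response element. Nearly every step of glycolysis has a HIF target among its isoenzymes, as do glucose import, lactate export, blood vessel growth signals, pH control and collagen hydroxylation. Granulosa cells are known for high glycolysis, and the lactate and pyruvate they release feed the oocyte.

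The PS-MP libraries held 70240738, 61307867 and 65714412 estimated counts, and the control libraries 56967176, 63807940 and 60212563. The cells were checked against fixed marker lists. Of 14 granulosa markers 13 were in the table, 5 reached 1 FPKM (fragments scaled to transcript length and sequencing depth) in all libraries, and 3 stayed below 0.1 FPKM in all. Their summed level was 26.1 to 34.4 FPKM in PS-MP and 25.4 to 33.4 FPKM in control libraries. Smooth muscle and pericyte markers, of which 8 of 9 reached 1 FPKM in all libraries, summed to 2479 to 3702 FPKM in PS-MP and 2743 to 3517 FPKM in control libraries. Fibroblast markers, of which 6 of 7 reached 1 FPKM in all libraries, summed to 866 to 1276 FPKM in PS-MP and 849 to 1494 FPKM in control libraries. Endothelial markers summed to at most 0.401 FPKM in PS-MP and 0.407 FPKM in control libraries, and Nobox, Hba-a1 and Hba-a2, of oocytes and red blood cells, were at 0 in all 6. The label of granulosa cells therefore rests on few of its markers, and in such bulk RNA fewer cells of a type and less RNA per cell cannot be told apart.

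No glycolytic or hypoxia-responsive gene passed the test between PS-MP and control cells. All 36 were tested by edgeR's quasi-likelihood test with Benjamini-Hochberg adjustment over 17186 genes, and all had an adjusted p of 1.00. The test called 0 genes changed in the whole table, or 0.0%, with an adjusted p below 0.05 and a minimum of 1.5-fold as thresholds. DESeq2 called 1 gene and no member, and both tools had 226 genes at an unadjusted p under 0.05. Of the 36 genes, 28 had a positive log2 fold change, PS-MP over control, against 50.0% of all genes tested. The sizes were small, with a median log2 fold change of 0.05 over the members and 0.00 over all genes tested. For 29 of the 36 the 95% interval of the fold change lay within 1.5-fold in both directions.

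At an unadjusted p under 0.05, 3 of the 36 lay above control, against 0.85% of all genes, and 0 lay below, against 0.465%. The 3 were Aldoc, Pgk1 and Car9, which ranked 27, 216 and 98 by p among the 17186 genes. The members at such a p, in either direction, numbered 1 without PS-MP 2, 1 without control 2 and 1 under a filter of at least 1 CPM (counts scaled to library size) in all libraries, which Aldoc does not pass. Without 1 of the other 4 libraries they numbered 2 or 3. The FPKM of the PS-MP libraries lay wholly above those of the control libraries for 10 members, against 4.57% of all genes. They lay wholly below for 0 members, against 1.88%. FPKM summed over all genes to 284964, 285443 and 290681 in the PS-MP libraries and 274177, 278379 and 283405 in the control libraries, so FPKM lean slightly towards PS-MP in the whole table, while log2 fold changes use scaled counts and do not.

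Deviations from the group mean correlated between same-numbered libraries at 0.809, 0.152 and 0.621 for numbers 1, 2 and 3. PS-MP 2 correlated more with control 3, at 0.381, so pairing by number is clear only for numbers 1 and 3. The test was repeated with the replicate number as a block. The members with an unadjusted p under 0.05 then numbered 8 above control, against 2.72% of all genes, and 1 below, against 2.22%. The 8 were Aldoc, Pgk1, Ldha, Pdk1, Bnip3, Car9, Ankrd37 and Ndrg1, and the 1 below was Hif1a. With the block and a pair left out, the members at such a p, in either direction, numbered 2 without pair 2 and 5 without pair 1 or pair 3, against 9 with all pairs. None of them passed the adjusted threshold, and the lowest adjusted p among members was 0.884. The blocked edgeR test called 1 gene in the table, or 0.00582% of those tested, and no member.

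Promoter sequence is shown for 7 of these 8 genes, since Ndrg1 had no window in the source of promoters. The 7 were picked by their blocked p, after their values were seen. PS-MP lay above control in every pair of the same number for 16 of the 36 members, so that trait does not set the 7 apart. Each window runs from 250 bases before to 50 bases after the gene's start in RefSeq (table of GRCm38.p6), was placed on GRCm39 by its exact match, and is printed 5′ to 3′ on the gene's strand. Where a gene had more than 1 window, the one nearest to its start in the deposited table is given. Capitals mark ACGTG or GCGTG, the core of the hypoxia response element, on either strand, so that the palindrome CACGTG counts as 2 overlapping matches.
Aldoc (chr11:78213649-78213948, plus strand): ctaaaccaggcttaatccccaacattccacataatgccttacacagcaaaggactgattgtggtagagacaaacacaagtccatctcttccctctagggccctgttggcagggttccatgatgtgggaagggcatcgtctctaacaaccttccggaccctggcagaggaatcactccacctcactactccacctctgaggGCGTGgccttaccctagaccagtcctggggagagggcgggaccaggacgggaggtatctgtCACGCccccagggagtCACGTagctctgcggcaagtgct
Pgk1 (chrX:105230456-105230755, plus strand): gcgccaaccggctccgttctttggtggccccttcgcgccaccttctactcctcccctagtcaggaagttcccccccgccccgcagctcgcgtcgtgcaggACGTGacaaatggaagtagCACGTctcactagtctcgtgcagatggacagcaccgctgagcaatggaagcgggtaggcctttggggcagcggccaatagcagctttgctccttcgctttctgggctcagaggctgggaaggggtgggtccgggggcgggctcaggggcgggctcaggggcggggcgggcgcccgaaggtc
Ldha (chr7:46494978-46495277, plus strand): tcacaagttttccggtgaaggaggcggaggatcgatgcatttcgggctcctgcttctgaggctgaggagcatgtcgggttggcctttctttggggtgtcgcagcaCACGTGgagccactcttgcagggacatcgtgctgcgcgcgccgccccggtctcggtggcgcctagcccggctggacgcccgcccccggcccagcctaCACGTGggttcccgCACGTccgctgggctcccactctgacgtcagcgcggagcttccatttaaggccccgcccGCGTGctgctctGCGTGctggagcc
Pdk1 (chr2:71703318-71703617, plus strand): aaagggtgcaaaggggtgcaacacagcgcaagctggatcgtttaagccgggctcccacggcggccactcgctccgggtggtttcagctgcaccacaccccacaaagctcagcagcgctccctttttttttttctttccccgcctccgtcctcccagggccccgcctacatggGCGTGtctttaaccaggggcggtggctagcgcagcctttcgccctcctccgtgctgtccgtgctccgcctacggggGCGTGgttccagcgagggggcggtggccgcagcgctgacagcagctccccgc
Bnip3 (chr7:138511186-138511485, minus strand): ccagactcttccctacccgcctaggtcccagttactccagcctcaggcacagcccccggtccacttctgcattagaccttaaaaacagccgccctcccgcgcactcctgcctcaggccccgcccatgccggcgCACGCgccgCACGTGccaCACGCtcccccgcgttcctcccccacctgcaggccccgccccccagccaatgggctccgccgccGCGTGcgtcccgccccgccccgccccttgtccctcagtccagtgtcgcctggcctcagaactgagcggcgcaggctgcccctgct
Car9 (chr4:43506776-43507075, plus strand): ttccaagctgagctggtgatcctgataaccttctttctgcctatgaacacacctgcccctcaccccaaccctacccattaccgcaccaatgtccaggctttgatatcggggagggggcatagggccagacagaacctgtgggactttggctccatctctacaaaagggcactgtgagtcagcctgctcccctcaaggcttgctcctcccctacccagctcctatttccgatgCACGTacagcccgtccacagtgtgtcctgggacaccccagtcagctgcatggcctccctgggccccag
Ankrd37 (chr8:46452838-46453137, minus strand): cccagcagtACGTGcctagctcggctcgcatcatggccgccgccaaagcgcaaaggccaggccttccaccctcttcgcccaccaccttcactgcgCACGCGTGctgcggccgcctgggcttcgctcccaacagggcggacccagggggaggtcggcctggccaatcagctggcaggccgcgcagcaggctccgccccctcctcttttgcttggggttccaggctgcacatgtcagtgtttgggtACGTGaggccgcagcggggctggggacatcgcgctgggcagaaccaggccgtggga

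Ldha had the most ACGTG matches of the 7, with 5, which include both strands of its 2 CACGTG words, and it had 2 matches of GCGTG. Bnip3 had 2 matches of ACGTG and 3 of GCGTG, all before the gene's start. Pgk1 had 2 ACGTG matches on opposite strands, Car9 had 1, and Pdk1 had 2 of GCGTG. The 36 genes had 50 windows, which cover 34 of them, and 39 windows, or 78.0%, held either word. Of all 32851 windows of the same length 43.8% did. The share was 75.0% for the 28 windows of glycolytic enzymes and 76.9% for the 13 windows of other hypoxia-responsive genes. The 2 words taken singly differed more. ACGTG was in 42.9% of the enzyme windows and 76.9% of the others, against 19.6% of all windows. GCGTG was in 53.6% and 46.2%, against 32.4%. Some genes have more than 1 window, some of which overlap, and the shares of the single words count each window separately. By gene, 14 of 17 enzymes and 9 of 10 others held either word, against 12628 of all 27025 genes. A match is a description of these letters and not a bound site, and binding was not measured.

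The 36 genes differed far more in level from each other than between PS-MP and control. By the genes' own rows, the enzymes of late glycolysis and of the lactate step stood highest together with aldolase. This order leaves out rows of near-identical sequence, which over the 6 libraries summed to 2929 to 3356 FPKM for Gapdh and 696 to 871 FPKM for Eno1. Pkm, which makes pyruvate, was at 588 ± 11.3 FPKM in PS-MP and 564 ± 24.5 FPKM in control libraries (mean ± SD, n = 3 per group, as in all such pairs). Aldoa, the main aldolase, was at 552 ± 4.53 FPKM in PS-MP and 523 ± 10.4 FPKM in control libraries, and 43.1% of its exon bases lie in Gm57854, on the same strand. The second row of Aldoa is Gm57854 in GENCODE. It lies on the same strand, and its deposited ends do not overlap those of the first row, though their GENCODE exons do. This second row stayed between 0.161 and 0.853 FPKM in PS-MP and between 0.313 and 0.569 FPKM in control libraries. At the other end stood Aldoc, Car9 and Car12, all below 1 FPKM in every library.

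**Figure D1:**
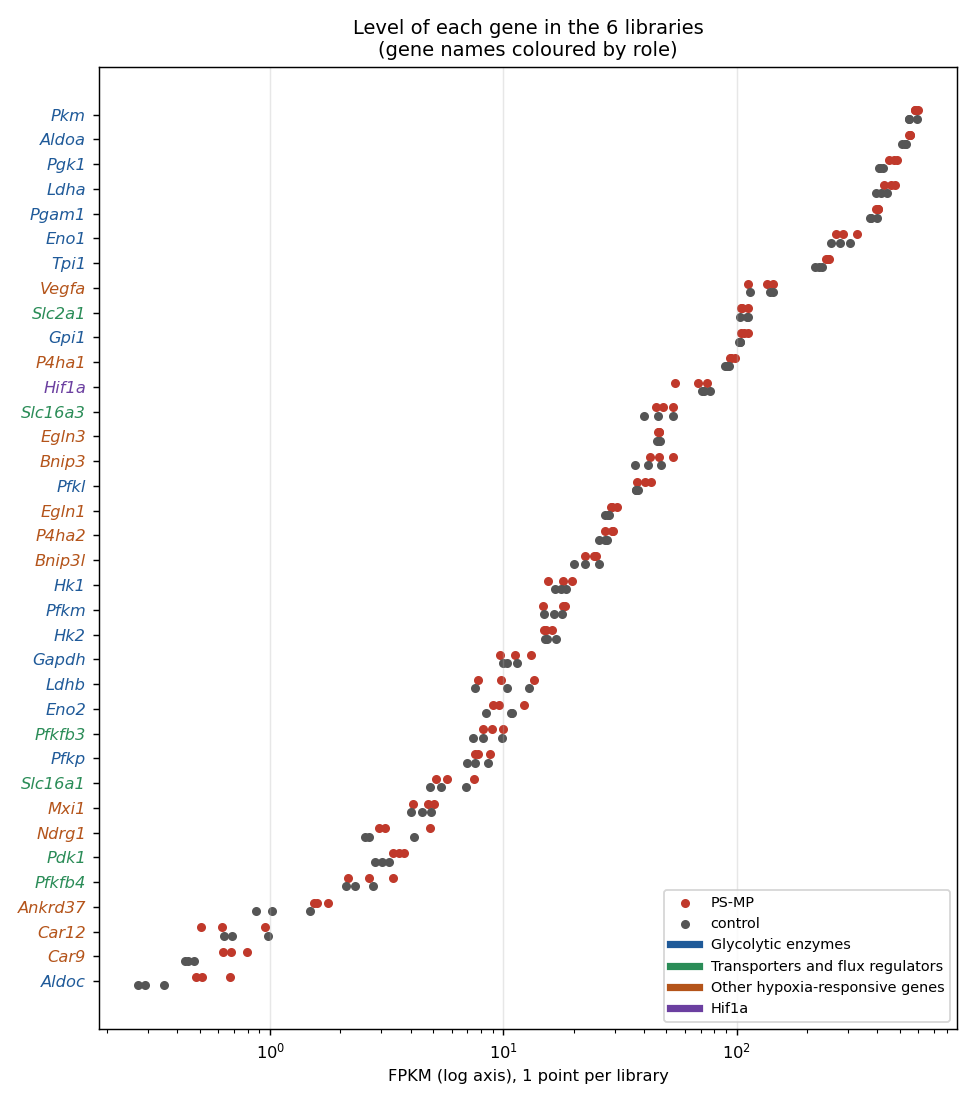
Level of each of the 36 genes in FPKM on a log axis, with 1 point per library, PS-MP in red above control in grey, and gene names coloured by role. By the genes' own rows, without near-identical copies, Pkm lies highest, at 550 to 601 FPKM, and Aldoc lowest, at 0.270 to 0.675 FPKM. For most genes the red and grey points overlap.

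Glucose enters through Slc2a1, the transporter GLUT1, whose level was 105, 106 and 112 FPKM in PS-MP libraries and 103, 112 and 111 FPKM in control libraries. The groups overlapped, with a log2 fold change of -0.04 ± 0.07 (SE). The hexokinases, which trap glucose as its phosphate, stood alike, Hk1 at 17.8 ± 2.09 FPKM in PS-MP and 17.6 ± 0.972 FPKM in control libraries. Hk2, the inducible isoenzyme and a HIF target, was at 15.4 ± 0.634 FPKM in PS-MP and 15.8 ± 0.970 FPKM in control libraries. Its log2 fold change was -0.05 ± 0.08, and PS-MP lay above control in 2 of the same-numbered pairs. Neither gene differed from 0 by more than its SE. With the replicate block, Slc2a1 was at 0.0040 without pair 2 and Hk2 at 0.026 without pair 1.

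Gpi1, the isomerase of the next step, was at 107 ± 3.70 FPKM in PS-MP and 103 ± 0.765 FPKM in control libraries, and its groups did not overlap. On scaled counts the log2 fold change was 0.04 ± 0.06, and PS-MP 1 lay below control 1. Phosphofructokinase, the committed step, was carried mostly by the liver-type gene Pfkl, at 40.3 ± 2.82 FPKM in PS-MP and 37.3 ± 0.342 FPKM in control libraries. The muscle-type Pfkm was at 14.8, 18.4 and 17.9 FPKM in PS-MP libraries and 14.95, 16.5 and 17.8 FPKM in control libraries, and the platelet-type Pfkp at 8.01 ± 0.637 FPKM in PS-MP and 7.71 ± 0.820 FPKM in control libraries. Their log2 fold changes were 0.09 ± 0.07, 0.04 ± 0.11 and 0.04 ± 0.10. Only Pfkl exceeded its SE, and the 95% interval of each of the 3 included 0. The value of Pfkl was 0.04 without PS-MP 3, and 39.8% of its exon bases lie in a gene of the opposite strand.

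Aldoc, the aldolase best known from brain, had the largest fold change of all 36 genes at the lowest level. It was at 0.675, 0.511 and 0.483 FPKM in PS-MP libraries, from 168, 113 and 114 estimated counts. In control libraries it was at 0.270, 0.291 and 0.349 FPKM, from 56, 69 and 77 estimated counts. Every PS-MP library lay above every control library, with a log2 fold change of 0.84 ± 0.24 (95% interval 0.27 to 1.41) and an unadjusted p of 0.0101. The adjusted p was 1.00 in edgeR's quasi-likelihood test and 0.884 with the replicate block. Aldoc (chr11:78213794-78218607, plus strand, GRCm39) overlaps no other annotated exon, and no near-identical copy was found among the pseudogene rows searched.

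Triose phosphate isomerase, Tpi1, was at 248, 242 and 245 FPKM in PS-MP libraries and 226, 232 and 217 FPKM in control libraries. The groups did not overlap, and the log2 fold change was 0.10 ± 0.06 with an unadjusted p of 0.142 by edgeR, and 0.07 without control 3. Phosphoglycerate kinase, Pgk1, the first ATP-yielding enzyme and a classic HIF target, had the lowest unadjusted p of the enzymes above 1 FPKM. Its level was 472, 486 and 449 FPKM in PS-MP libraries and 406, 425 and 412 FPKM in control libraries. Every PS-MP library lay above every control library. The log2 fold change was 0.16 ± 0.07 with an unadjusted p of 0.0482, and 0.16 ± 0.04 with the replicate block, where the unadjusted p was 0.00463 and its rank 68 of 17186. Its adjusted p was 0.884 in the blocked edgeR test and 0.169 in DESeq2 with the block. Rows of near-identical sequence held 3.38% to 3.84% of the counts of Pgk1 (chrX:105230706-105247305, plus strand), and the log2 fold change with them added was 0.16 ± 0.07.

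The phosphoglycerate mutase Pgam1 was at 400 ± 5.45 FPKM in PS-MP and 383 ± 12.8 FPKM in control libraries, and the groups overlapped. The neuronal-type enolase Eno2 was at 9.04, 9.62 and 12.2 FPKM in PS-MP libraries and 8.38, 10.9 and 10.7 FPKM in control libraries. Pkm had a log2 fold change of 0.04 ± 0.07, and 23.5% of its exon bases lie in another gene of the same strand. Lactate dehydrogenase A, Ldha, a HIF target that makes lactate, was at 477, 459 and 428 FPKM in PS-MP libraries and 442, 414 and 395 FPKM in control libraries. Each PS-MP library lay above the control library of its number, but the groups overlapped. Ldha had a log2 fold change of 0.10 ± 0.08 without the block and 0.10 ± 0.04 with it, with unadjusted p of 0.211 and 0.0271, and the log2 fold change was 0.05 without control 3. Ldhb, the heart-type subunit, was at 7.79, 9.74 and 13.5 FPKM in PS-MP libraries and 7.57, 10.4 and 12.8 FPKM in control libraries, so libraries of 1 number were closer to each other than to their group.

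**Figure D2:**
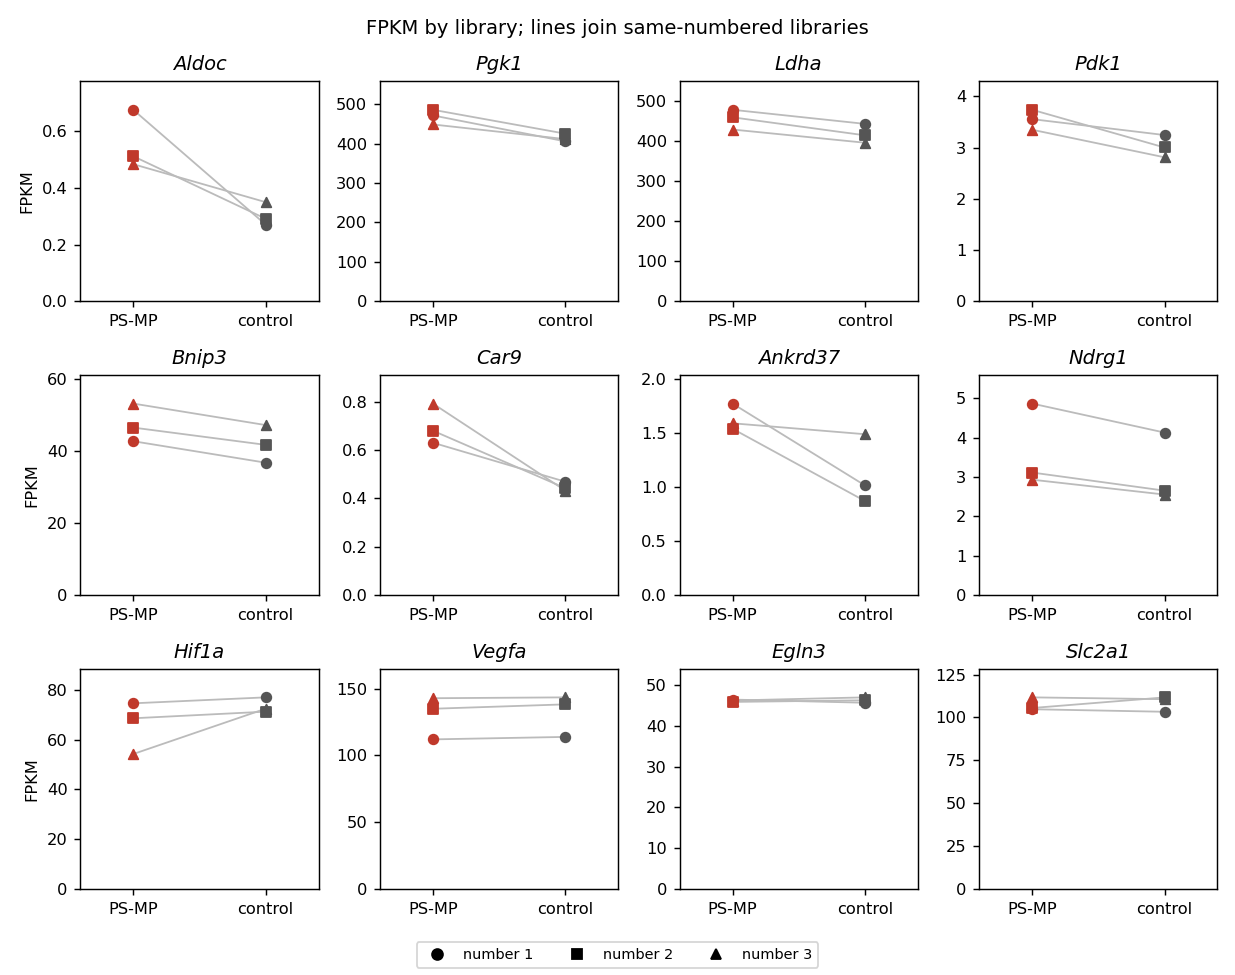
FPKM by library for 12 genes, PS-MP left of control, with lines joining libraries of the same number and each vertical axis starting at 0. In the first 8 panels all 3 lines run lower on the control side, while Vegfa, Egln3 and Slc2a1 are nearly level and Hif1a is lowest in PS-MP 3 at 54.2 FPKM.

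Gapdh and Eno1 need a caution on their rows. Gapdh, the dehydrogenase of glycolysis and a common reference gene, was listed at only 13.1, 9.68 and 11.3 FPKM in PS-MP libraries and 11.4, 10.4 and 9.91 FPKM in control libraries, far under the neighbouring steps of the same pathway. Among the deposited rows annotated as pseudogenes, 124 were at least 90% identical to Gapdh over at least 50% of their length. These rows held 98.4% to 98.8% of the counts of Gapdh and its copies together in the 6 libraries, and Gm13394, a row on chromosome 2 of 99.9% identity, alone averaged 1320 FPKM. With all of them added, the log2 fold change was 0.07 ± 0.07, against 0.08 ± 0.12 for the Gapdh row. The Gapdh row thus does not give the level of Gapdh, and reads of the gene and of its copies cannot be told apart in this table.

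Eno1, the main enolase, was at 293 ± 31.4 FPKM in PS-MP and 279 ± 26.0 FPKM in control libraries. Its 4 near-identical rows held 43.2% to 44.6% of the summed counts, and Gm4735 alone averaged 464 FPKM. Its log2 fold change was 0.05 ± 0.10 for the Eno1 row and 0.04 ± 0.11 with the copies added. The other members with such rows shared fewer counts with them, with Bnip3l at 6.58% to 8.09% and Pgam1 at 4.66% to 5.01%.

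**Figure D3:**
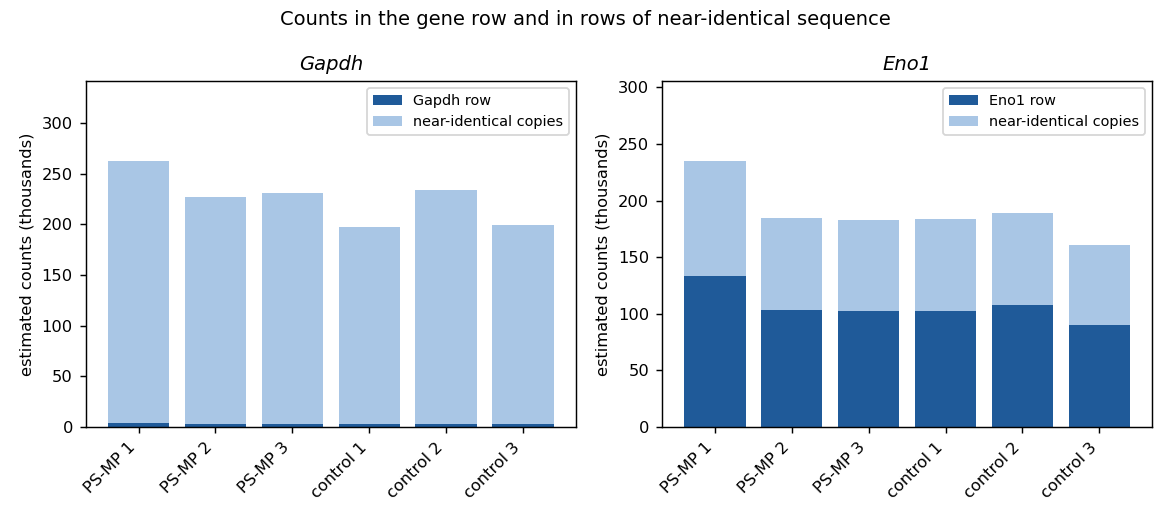
Estimated counts, on an axis divided by 1000, in the row of Gapdh (left) and of Eno1 (right) and in rows of near-identical sequence, stacked for each library with PS-MP left of control. The Gapdh row is a thin base under copies that hold 98.4% to 98.8% of each bar, whereas the Eno1 row holds more than its copies in every library.

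Among the regulators of flux, Pdk1, the kinase that shuts pyruvate out of the mitochondrion and a HIF target, was at 3.55, 3.74 and 3.35 FPKM in PS-MP libraries and 3.24, 3.00 and 2.81 FPKM in control libraries. Its groups did not overlap, and the log2 fold change was 0.21 ± 0.10 with an unadjusted p of 0.0604, or 0.0209 with the block. Pfkfb3 and Pfkfb4 make and remove the activator of phosphofructokinase. Pfkfb3 was at 9.01 ± 0.883 FPKM in PS-MP and 8.46 ± 1.25 FPKM in control libraries, and Pfkfb4 at 2.72 ± 0.608 FPKM in PS-MP and 2.40 ± 0.320 FPKM in control libraries. The lactate exporter Slc16a3 (MCT4), a HIF target, was at 48.8 ± 4.28 FPKM in PS-MP and 46.4 ± 6.82 FPKM in control libraries. The monocarboxylate carrier Slc16a1 (MCT1) was at 6.11 ± 1.23 FPKM in PS-MP and 5.70 ± 1.06 FPKM in control libraries. For Pfkfb3, Pfkfb4, Slc16a3 and Slc16a1 the groups overlapped, and 44.1% of the exon bases of Slc16a3 lie in genes of the opposite strand.

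The 12 other hypoxia-responsive genes split into a few with larger fold changes at low level and a majority near 0. Car9, the membrane carbonic anhydrase that serves as a standard marker of hypoxia, was at 0.631, 0.680 and 0.793 FPKM in PS-MP libraries and 0.469, 0.443 and 0.433 FPKM in control libraries. Every PS-MP library lay above every control library. Car9 had a log2 fold change of 0.62 ± 0.22 (95% interval 0.09 to 1.14) with an unadjusted p of 0.0267 and an adjusted p of 1.00 by edgeR. Gm12454, on the opposite strand, overlaps 27.5% of the exon bases of Car9 (chr4:43506966-43513729, plus strand). Its relative Car12 pointed the other way, at 0.950, 0.620 and 0.508 FPKM in PS-MP libraries and 0.980, 0.635 and 0.688 FPKM in control libraries, with a log2 fold change of -0.17 ± 0.27. The Car12 groups overlapped.

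Ankrd37, a small ankyrin-repeat gene that is a HIF target, was at 1.77, 1.54 and 1.59 FPKM in PS-MP libraries and 1.02, 0.871 and 1.49 FPKM in control libraries. All PS-MP libraries lay above all control libraries, with control 3 close under them. Ankrd37 had a log2 fold change of 0.51 ± 0.24 with an unadjusted p of 0.0708 by edgeR. Exons of genes on the opposite strand, Lrp2bp and Ufsp2, cover 81.4% of the exon bases of Ankrd37 (chr8:46449939-46452904, minus strand). Whether strand was used in counting was not stated by the labels, so its reads and theirs cannot be told apart with certainty.

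Bnip3, a mitophagy receptor of the outer mitochondrial membrane, was at 42.7, 46.4 and 53.1 FPKM in PS-MP libraries and 36.7, 41.7 and 47.1 FPKM in control libraries. The groups overlapped, but the same-numbered differences were close to each other, at 0.19, 0.13 and 0.17 on the log2 scale for numbers 1, 2 and 3. The unadjusted p was 0.211 without the block and 0.0101 with it, and the log2 fold change of Bnip3, 0.16 ± 0.12, was 0.07 without PS-MP 3 and 0.24 without control 3. Its homologue Bnip3l (NIX) was at 23.9 ± 1.35 FPKM in PS-MP and 22.8 ± 2.86 FPKM in control libraries, with a log2 fold change of 0.05 ± 0.10. Ndrg1, a stress-responsive gene, was at 4.86, 3.11 and 2.93 FPKM in PS-MP libraries and 4.13, 2.65 and 2.55 FPKM in control libraries. Number 1 was high in both groups for Ndrg1, and the same-numbered log2 differences were 0.21, 0.20 and 0.20.

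Vegfa, the angiogenic growth factor and a textbook HIF target, was at 112, 135 and 143 FPKM in PS-MP libraries and 114, 138 and 143 FPKM in control libraries. The log2 fold change was -0.04 ± 0.13, and each PS-MP library lay slightly under the control library of its number. The oxygen sensors Egln1 (PHD2) and Egln3 (PHD3) are prolyl hydroxylases that feed back on HIF. Egln1 was at 30.6, 29.2 and 28.8 FPKM in PS-MP libraries and 28.2, 28.5 and 27.3 FPKM in control libraries, with no overlap and a log2 fold change of 0.06 ± 0.06. Egln3 was at 46.2 ± 0.287 FPKM in PS-MP and 46.3 ± 0.660 FPKM in control libraries. Egln3 had the narrowest range of all 36 genes, 0.05 on the log2 scale over the 6 libraries, and its log2 fold change was -0.02 ± 0.06. The collagen prolyl hydroxylase subunits P4ha1 and P4ha2 had log2 fold changes of 0.05 ± 0.06 and 0.07 ± 0.07. P4ha1 was at 95.3 ± 2.47 FPKM in PS-MP and 90.8 ± 1.61 FPKM in control libraries, and P4ha2 at 28.6 ± 1.10 FPKM in PS-MP and 26.9 ± 1.06 FPKM in control libraries. Mxi1, a MYC antagonist, was at 4.63 ± 0.475 FPKM in PS-MP and 4.48 ± 0.436 FPKM in control libraries.

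Hif1a was at 74.5, 68.5 and 54.2 FPKM in PS-MP libraries and 76.9, 71.2 and 72.4 FPKM in control libraries. PS-MP 3 was the lowest of the 6, and each PS-MP library lay under the control library of its number. Hif1a had a log2 fold change of -0.18 ± 0.12 with an unadjusted p of 0.162, or 0.0270 with the block, and the log2 fold change was -0.06 without PS-MP 3. HIF-1 is regulated chiefly through protein stability, which RNA levels do not show.

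**Figure D4:**
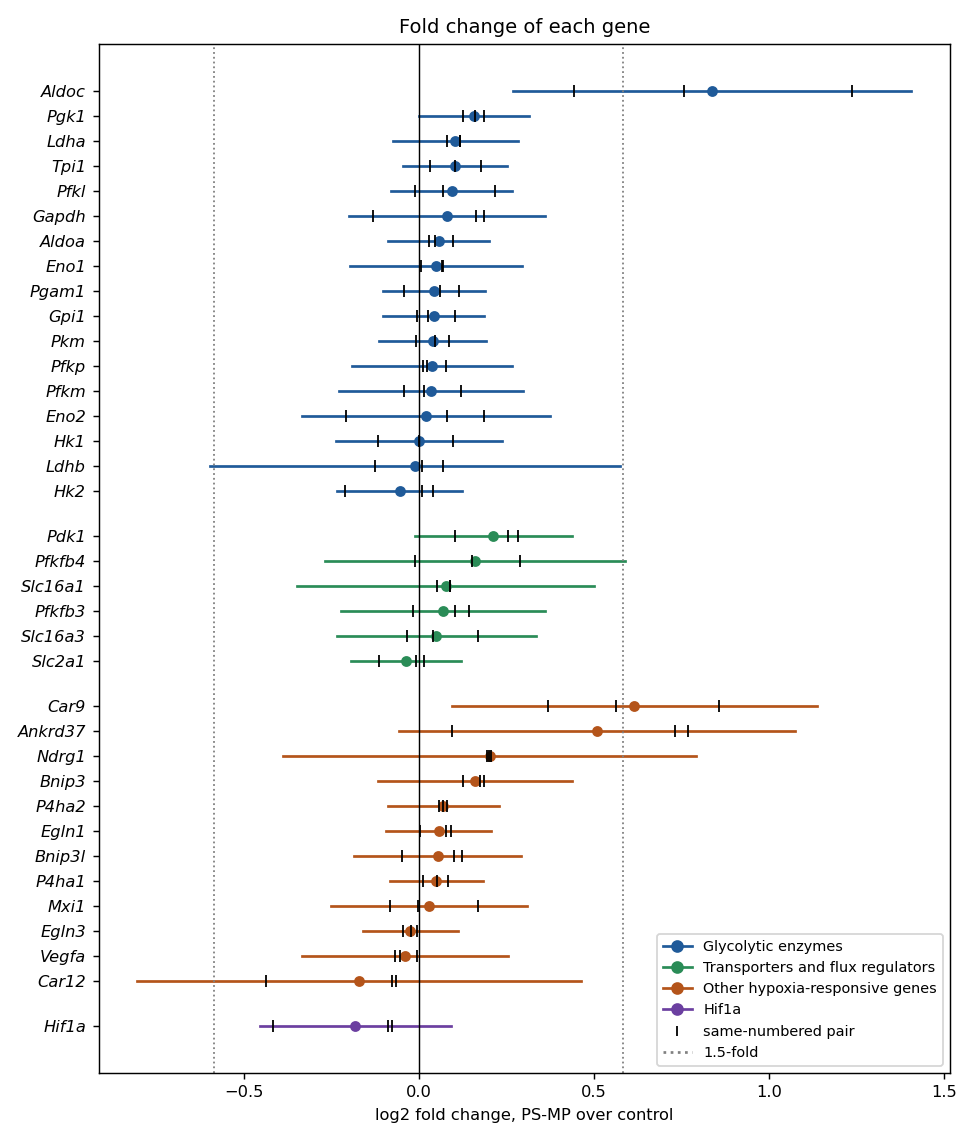
Log2 fold change of each gene, PS-MP over control, by role: points are edgeR estimates, bars their 95% intervals, short ticks the differences of the 3 same-numbered pairs and dotted lines 1.5-fold. Aldoc and Car9 lie farthest right at 0.84 and 0.62, Hif1a lies at -0.18, and most other intervals include 0 and stay within the dotted lines.

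Glycolytic enzymes and other hypoxia-responsive genes were set side by side. Of the 17 enzymes 14 had a positive log2 fold change, and their median was 0.04. Of the 12 other hypoxia-responsive genes 9 did, and their median was 0.06. The 6 transporters and regulators had 5 positive and a median of 0.07. The enzyme median minus that of the other hypoxia-responsive genes was -0.01. It ranged from -0.04 to 0.03 over all alternatives, while single members ran from 0.84 for Aldoc to -0.17 for Car12. Both groups had medians slightly on the PS-MP side. They were not tested against each other, since the members were chosen with earlier results of these data known.

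By pairs of the same number, the enzyme median was 0.05, 0.03 and 0.11 on the log2 scale and that of the other hypoxia-responsive genes 0.09, 0.06 and 0.08. PS-MP lay above control in all 3 pairs for 16 of the 36 genes, against 14.6% of all genes tested. It lay below in all 3 pairs for 4, against 13.3%, and these were Vegfa, Egln3, Car12 and Hif1a. The count of 4 is near the share of all genes, and Vegfa and Egln3 had log2 fold changes of only -0.04 and -0.02.

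The balance between isoenzymes was compared as a share of their summed FPKM, since FPKM is per length. In 11 families an exact two-sided permutation test over the 6 libraries was made, whose smallest possible p is 0.1. Aldoc made up 0.101 ± 0.0180% of aldolase in PS-MP and 0.0581 ± 0.00899% in control libraries, and its groups did not overlap (exact permutation p = 0.1, adjusted over the 11 families p = 0.367). Bnip3l made up 33.6 ± 1.48% of Bnip3 and Bnip3l in PS-MP and 35.2 ± 0.265% in control libraries, with the same exact p of 0.1. Egln3 made up 61.0 ± 0.694% of Egln1 and Egln3 in PS-MP and 62.3 ± 0.779% in control libraries, again with an exact p of 0.1. Car12 made up 48.9 ± 10.6% of Car9 and Car12 in PS-MP and 62.6 ± 4.48% in control libraries, where the groups overlapped (exact permutation p = 0.2, adjusted p = 0.55). In the other 7 families the exact p was 0.7 or more. The permutation takes no account of the replicate numbers. By pairs of the same number, PS-MP lay above control in all 3 for the shares of Aldoc and Pfkfb4 and below in all 3 for those of Bnip3l, Egln3, Car12 and Ldhb.

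Those 7 include the enzyme switches most often named for HIF. Hk2 made up 46.5 ± 2.79% of the hexokinases in PS-MP and 47.3 ± 2.85% in control libraries. Ldhb made up 2.24 ± 0.735% of lactate dehydrogenase in PS-MP and 2.43 ± 0.731% in control libraries, so that the A subunit dominated in both. Slc16a3 made up 88.9 ± 1.09% of the lactate carriers in PS-MP and 89.1 ± 0.445% in control libraries. The largest spread was in Pfkfb4, which made up 17.8%, 22.8% and 29.2% of Pfkfb3 and Pfkfb4 in PS-MP libraries and 17.7%, 22.2% and 27.1% in control libraries, nearly equal between libraries of the same number.

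How the genes varied among libraries differed from gene to gene. Over the 6 libraries the replicate number went with a median of 64.5% of the variance of log2 CPM of the 36 genes and treatment with 18.3%. Over all genes tested the medians were 61.2% and 7.40%, and over all genes above 10 CPM they were 69.3% and 6.02%. The share of the number in the members thus lay between those of these 2 sets. The number went with 98.3% for Ldhb, 97.4% for Vegfa and 96.9% for Slc16a1. Treatment went with 88.4% for Car9, 85.0% for Aldoc, 73.1% for Pgk1, 66.7% for P4ha1, 62.9% for Pdk1 and 62.6% for Tpi1. The replicate number has more levels than treatment and would take a larger share even without any effect. The share of the number is therefore not to be weighed against that of treatment. These shares describe 6 libraries and carry no test.

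**Figure D5:**
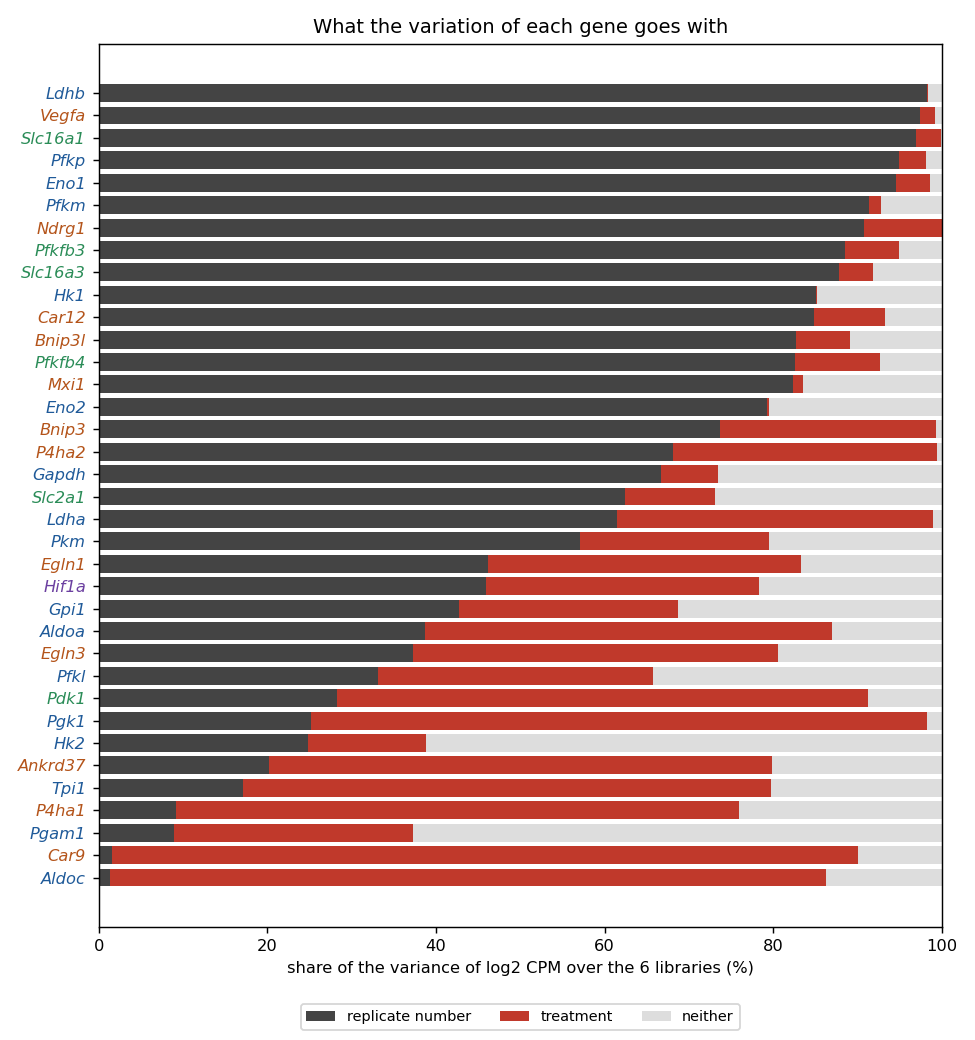
Share of the variance of log2 CPM over the 6 libraries that goes with replicate number, with treatment and with neither, for each of the 36 genes, in percent. The number takes 98.3% for Ldhb at the top and 1.34% for Aldoc at the bottom, and treatment takes 85.0% for Aldoc.

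In both groups number 3 lay above number 1 for 14 members, including Vegfa, Bnip3, Ldhb, Pfkfb4 and Hk1. Number 1 lay above number 3 in both groups for 10, including Ldha, Eno1, Slc16a1, Slc16a3, Ndrg1 and Hif1a. These are 38.9% and 27.8% of the members, against 30.7% and 29.3% of all genes tested. Marker sums of other cell types differed by number too. The sum of 8 surface epithelium markers was 33.0, 10.5 and 4.17 FPKM in PS-MP libraries 1, 2 and 3 and 28.7, 10.6 and 4.14 FPKM in control libraries 1, 2 and 3. The 9 smooth muscle and pericyte markers summed to 3702, 3289 and 2479 FPKM in PS-MP libraries and 3517, 3366 and 2743 FPKM in control libraries. With treatment, 7 of these 9 markers had negative log2 fold changes, and the median of the list was -0.17. The 6 leukocyte markers in the table summed to 2.93 to 4.40 FPKM in PS-MP and 2.89 to 4.37 FPKM in control libraries. The part of these cell types in the values of the 36 genes was not tested.

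Other genes of the same pathways gave 0 calls in either direction by edgeR. Of 25 further genes of glycolysis and glucose handling 16 were tested, and 8 had a positive log2 fold change. The highest in level were Eno3, the muscle-type enolase, at 63.6 ± 3.89 FPKM in PS-MP and 67.7 ± 4.22 FPKM in control libraries, and Pgm1, the phosphoglucomutase, at 41.0 ± 1.31 FPKM in PS-MP and 38.2 ± 0.487 FPKM in control libraries. Bpgm, which diverts the pathway to 2,3-bisphosphoglycerate, had the lowest p. It was at 3.73, 3.09 and 3.31 FPKM in PS-MP libraries and 4.15, 4.40 and 3.77 FPKM in control libraries, a log2 fold change of -0.30 ± 0.12 with an unadjusted p of 0.0330 and no overlap between groups. Of the 12 genes of pyruvate entry into mitochondria 5 had a positive log2 fold change, and the median was -0.01. Pdha1, a subunit of pyruvate dehydrogenase, was at 45.6 ± 4.18 FPKM in PS-MP and 45.7 ± 3.99 FPKM in control libraries, and Dld, another, at 25.6 ± 2.51 FPKM in PS-MP and 25.4 ± 0.441 FPKM in control libraries. Mpc2, of the mitochondrial pyruvate carrier, had the lowest p of that list at 0.209 unadjusted.

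Of 12 genes of the oxygen-sensing machinery 11 were tested, and 4 had a positive log2 fold change, and the median was -0.07. Elob, a subunit of the ligase that marks HIF, was at 71.0 ± 6.87 FPKM in PS-MP and 69.6 ± 11.5 FPKM in control libraries. Cited2, which competes with HIF for its coactivator, was at 62.3 ± 7.03 FPKM in PS-MP and 65.6 ± 7.86 FPKM in control libraries. Rbx1, of the same ligase, had the lowest p, with 10.9 ± 0.532 FPKM in PS-MP and 9.44 ± 0.734 FPKM in control libraries and an unadjusted p of 0.0788.

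Of 34 further HIF targets 33 were tested, and 19 had a positive log2 fold change, and the median was 0.02. Hmox1, haem oxygenase, was at 175, 239 and 302 FPKM in PS-MP libraries and 172, 272 and 415 FPKM in control libraries. Ndufa4l2, a mitochondrial HIF target, had the lowest p, at 2.55, 3.45 and 2.78 FPKM in PS-MP libraries and 2.27, 1.53 and 1.65 FPKM in control libraries. Its groups did not overlap, and the log2 fold change was 0.67 ± 0.23 with an unadjusted p of 0.0230. The other 14 of the 33 had a negative log2 fold change, the lowest at -0.27. Fam162a and Angptl4 were named after their values were seen, and both are on the positive side. Fam162a was at 99.3 ± 3.93 FPKM in PS-MP and 85.9 ± 4.55 FPKM in control libraries, and Angptl4 at 59.6 ± 6.61 FPKM in PS-MP and 49.9 ± 5.40 FPKM in control libraries, with log2 fold changes of 0.19 ± 0.08 and 0.24 ± 0.11. None of these genes passed the adjusted threshold.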

How the data were processed

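RNA was sequenced from 3 PS-MP and 3 control libraries of cultured cells, made from poly(A) RNA with a dUTP-based second strand, per the labels' protocols. The submitters' processing notes name cutadapt 1.9 and FastQC, the aligner HISAT2 2.2.1, the quantifier StringTie 2.1.6 and the build GRCm39. The deposited table gives FPKM made by the authors, which scale fragments to transcript length and library size. It also gives deposited counts, which were treated as estimated counts because they pile up at multiples of 4 (6687 values of 4, 3161 of 3 and 2040 of 5). The step that made the counts, and its use of strand, was not given in the sources used here. Columns were tied to samples through their names, and 12 columns of per-library values whose names match no sample were not used. Gene names are those of the table, and overlaps of exons come from GENCODE on the same build. The gene ends in GENCODE equal those of the table for 3 of the 37 member rows, so overlaps in the annotation used for counting may differ. Copies were found with blastn 2.17.0 at an identity of at least 90% over at least 50% of the row. The 4346 rows searched were of at most 6000 bases and annotated as pseudogenes, with Eno1b, Pgk1-rs7 and Tpi-rs11 added by name. Other rows were not searched.

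Fold changes and p-values came from the two-sided quasi-likelihood test of edgeR 4.0.16 (R 4.3.3, with TMM scaling and filterByExpr and treatment as the only term), fitted on the whole table with Benjamini-Hochberg adjustment over 17186 genes. The thresholds, an adjusted p under 0.05 and 1.5-fold, are those of the authors, per the labels' protocols. The procedure was tested on simulated data. Totals were 56967176 to 70240738 estimated counts per library, and the median 95% interval of a member reached 0.24 to each side on the log2 scale. The libraries of a group were not duplicates of each other: their chi-square, divided by its degrees of freedom, was 31.6 to 131, on estimated counts. Isoform shares were tested with an exact permutation test.

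Replicate numbers occur in both groups of the labels. Over 9324 genes above 10 CPM, deviations from the group mean correlated at 0.809, 0.152 and 0.621 for numbers 1, 2 and 3, each above the level of 0.1 used for treating numbers as pairs, so blocked values are given where they move a count. PS-MP 2 with control 3 (0.381) and PS-MP 3 with control 2 (0.166) also exceeded that level, so it does not single out pair 2.

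The members, the gene lists and the rule for naming genes were chosen with earlier results of these data known. That rule took all 36 members and, from each further list, the 2 genes with the highest mean FPKM, any gene called and the tested gene with the lowest unadjusted p. A gene so chosen is left out of the report. Alternatives were DESeq2 1.42.0, other scalings and filters, limma 3.58.1 on log2(FPKM + 1) and log2(FPKM + 0.1), the replicate block, and leaving out each library or pair.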

Additional observations from a re-analysis of the deposited data

How the results depend on the processing

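No member was called changed by any of the 21 alternatives, and 24 to 31 of the 36 had a positive log2 fold change under them. The enzyme median ranged from 0.03 to 0.08 and that of the other hypoxia-responsive genes from 0.04 to 0.09. Of the members, 18 kept their sign under every alternative that tested them, 16 positive together with Egln3 and Hif1a. Aldoc did not pass the filter of at least 1 CPM in all libraries. Over the whole table, 1 gene was called with the replicate block, 1 with DESeq2, 4 with DESeq2 and the block, and 1 with copies added and the block, against 0 without them. Leaving out 1 library gave 0 to 1 calls, and leaving out pair 1, 2 or 3 with the block gave 1, 15 and 9. The block changed no call among members. Dividing counts by 4, adding copies, DESeq2 with the block and leaving Gapdh and Eno1 out of the enzymes were chosen after seeing the data. The cause of sign changes was not tested. Hk1, at -0.00019, turned to 0.0036 with upper-quartile scaling, 0.013 with limma at either pseudocount, 0.0022 with counts divided by 4 and 0.00020 with copies added. Ldhb, at -0.01, turned to 0.0045 and 0.0047 with limma at a pseudocount of 1 and 0.1. With the replicate block and pair 1 left out, Hk1 was at 0.049, Hk2 at 0.026 and Eno2 at -0.0095. Without pair 2, Pfkm was at -0.014, Ldhb at 0.041 and Slc2a1 at 0.0040. Without pair 3, Eno2 was at -0.065 and Mxi1 at -0.043. With 1 library left out, log2 fold changes ran from -0.084 to 0.090 for Hk1, -0.12 to 0.11 for Eno2, -0.030 to 0.13 for Pfkm, -0.030 to 0.11 for Pfkp and -0.25 to 0.17 for Ldhb. They ran from -0.029 to 0.18 for Gapdh, -0.033 to 0.12 for Eno1, -0.044 to 0.11 for Mxi1, -0.088 to 0.23 for Slc16a1 and -0.058 to 0.16 for Slc16a3. They ran from -0.14 to 0.061 for Vegfa, -0.057 to 0.46 for Ndrg1, -0.021 to 0.31 for Pfkfb4, -0.46 to 0.040 for Car12, -0.028 to 0.14 for Bnip3l and -0.029 to 0.19 for Pfkfb3. Isoform shares, as differences in percentage points, ran from -1.998 to 0.768 for Hk2, -0.602 to 0.234 for Pfkp, -0.525 to 0.326 for Eno2, -0.584 to 0.176 for Ldhb, -0.545 to 0.478 for Slc16a3, -0.183 to 0.891 for P4ha2 and -2.01 to 3.66 for Pfkfb4. Aldoc and Car9 averaged only 99.5 and 93.8 estimated counts per library, and how far depth or the spread among libraries limits them was not tested.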
